A study of Mus musculus with 12 samples.

Results

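Natural killer (NK) cell genes and genes of NKG2D ligands were followed in RNA of mouse tumours treated with an antibody against CSF1R, with an IL-10-Fc protein, with the fusion of both, or with a control IgG. The 10 genes were the rows of the deposited expression table that carry the symbols Ncr1, Klrb1c, Klrd1, Klrc1, Klrk1, Eomes, Il2rb, Nkg7, Raet1e and Ulbp1, out of 55401 genes. The first 8 are genes of the receptor side, expressed by NK cells and in part by T cells. Raet1e and Ulbp1 encode ligands that stressed or transformed cells show to the receptor NKG2D. All 10 passed the filter on low values, which left 15813 genes for the tests. In bulk tissue, fewer cells of a type and less RNA per cell cannot be told apart.

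The 12 libraries came from orthotopic oral tumours, which per the labels grew from MTC-Q1 oral cancer cells (1 cell line) injected into C57BL/6 mice, with 3 libraries per group. Ctrl-IgG mice received a control isotype (IgG1-Fc), aCSF1R mice a CSF1R antibody, IL-10-Fc mice recombinant IL10-Fc protein, and BF10 mice the IL10/CSF1R fusion protein, which per the study's methods is a CSF1R antibody that carries human IL-10 on its heavy chain. The labels start treatment at a tumour size of 100 mm3 and give the number of doses as 4 in one place and as 6 in another, and no age of the mice was given in them. The design asks what the antibody and the cytokine parts of BF10 each do to the tumour, alone and joined.

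NK cells kill cells without prior sensitisation and read the balance of activating and inhibitory receptors. The activating receptor NKG2D (Klrk1) binds proteins of the RAE-1, H60 and MULT1 families, while CD94 (Klrd1) pairs with NKG2A (Klrc1) to form an inhibitory receptor for the class Ib molecule Qa-1. NKp46 (Ncr1) and NKR-P1C (Klrb1c, the NK1.1 antigen of C57BL/6 mice) mark NK cells. Eomes is a T-box transcription factor of NK cells and of some CD8 T cells, Il2rb encodes the shared beta chain of the IL-2 and IL-15 receptors, and Nkg7 encodes a protein of cytotoxic granules. Several of these genes lie in the NK gene complex of chromosome 6, whose content differs between inbred strains, as does the set of Raet1 genes.

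Before the members, the libraries themselves have to be described, since they did not all carry the transcripts that their labels imply. Xist was at most 0.04 FPKM (a level of fragments scaled for transcript length and sequencing depth) in the 6 Ctrl-IgG and aCSF1R libraries, called here the libraries without IL-10, and 17.1 to 30.7 FPKM in the 6 libraries with IL-10, those of IL-10-Fc and BF10. The Y-linked Eif2s3y was 4.23 to 11.3 FPKM in the former and was listed at 0 in IL-10-Fc, with 0.05, 0 and 3.29 FPKM in BF10 replicates 1 to 3. H2-Ea, an MHC class II gene that C57BL/6 mice do not express, reached 0.27 FPKM at most without IL-10 and was 552.8 FPKM or more with it. Simple epithelial markers (Krt8, Krt18, Krt19, Krt7, Epcam and Cdh1) summed to 0.90 to 9.11 FPKM without IL-10 and to 598 to 1577 FPKM with it, although the labels give all 12 tumours the same cell line. The libraries with IL-10 thus went against the strain that the labels name and differed from the others in epithelial transcripts, and BF10 replicate 3 stood apart within its group. The study's methods also describe 4T1 tumours in BALB/c mice, and whether the libraries with IL-10 came from the labelled tumour line and mice was not tested. Every comparison across these sides differs in sex-linked, strain-linked and epithelial transcripts as well as in treatment, so that treatment, host and tumour line cannot be told apart, and "with IL-10" names only the label. The comparisons between aCSF1R and Ctrl-IgG and between BF10 and IL-10-Fc lie within a side. A second division crossed the groups. In 4 libraries (replicate 2 of Ctrl-IgG, replicates 1 and 2 of IL-10-Fc and replicate 1 of BF10) the FPKM sum was over 800000 and the mitochondrially encoded share was 6.57% to 9.04%, against 2.99% to 3.61% in the other 8.

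The ligand genes separated the libraries with IL-10 from those without. Raet1e encodes RAE-1 epsilon and lies on chromosome 10 (GRCm38, 22158569 to 22374139, plus strand). It was 26.4, 20.6 and 22.1 FPKM for Ctrl-IgG and 24.9, 21.7 and 28.6 FPKM for aCSF1R. The values were 4.77, 7.06 and 5.52 FPKM for IL-10-Fc and 7.03, 7.55 and 8.66 FPKM for BF10. The lowest library without IL-10 thus stood far above the highest with it, while Ctrl-IgG and aCSF1R overlapped, and so did IL-10-Fc and BF10. Ctrl-IgG had a mean of 23.01 ± 3.02 FPKM (SD, n = 3) and aCSF1R one of 25.1 ± 3.48, whereas the means of IL-10-Fc and BF10 were 5.78 ± 1.17 and 7.75 ± 0.833.

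Ulbp1 encodes MULT1, another NKG2D ligand (chromosome 10, 7440362 to 7473638, minus strand), and was higher where Raet1e was lower. It was 4.40, 9.89 and 4.75 FPKM for Ctrl-IgG and 6.16, 5.85 and 7.36 FPKM for aCSF1R. The values were 15.7, 14.5 and 15.7 FPKM for IL-10-Fc and 18.4, 20.6 and 13.6 FPKM for BF10. No library of the first pair of groups reached the lowest of the second pair, and the closest was Ctrl-IgG replicate 2, one of the libraries of high FPKM sum.

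Raet1e has a close relative, Raet1d (RAE-1 delta), which lies at 22360552 to 22374139 on the same strand, inside the interval annotated for Raet1e. Raet1e also has a far annotated start that it shares with H60b, and the bases in front of that start are not printed. The bases in front of the own start of Raet1e and of the start of Raet1d are shown because they tell how alike these loci are. Both stretches are from RefSeq's GRCm38.p6 annotation, chr10:22173299-22173496 and chr10:22361694-22361891 on the plus strand, and capitals mark the bases that differ. The printed stretches lie 188395 bases apart, and that of Raet1d was cut 2 bases short of its start to align the pair.
Raet1e: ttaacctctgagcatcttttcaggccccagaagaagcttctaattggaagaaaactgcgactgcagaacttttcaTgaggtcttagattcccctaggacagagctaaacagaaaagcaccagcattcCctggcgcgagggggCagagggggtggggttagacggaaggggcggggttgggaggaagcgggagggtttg
Raet1d: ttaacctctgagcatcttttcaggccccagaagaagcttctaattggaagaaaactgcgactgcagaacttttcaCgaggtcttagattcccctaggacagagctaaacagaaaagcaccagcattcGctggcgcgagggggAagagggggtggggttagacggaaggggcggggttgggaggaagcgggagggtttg
The stretches of 198 bases differ at 3 positions, T76C, C128G and C143A with positions counted from the first base printed and the Raet1e base first, an identity of 98.5%.

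The likeness extends into the transcripts. Of the 75-base windows in the annotated transcripts of Raet1e, 34.2% occurred in transcripts of another gene, mostly of Raet1d, and of those of Raet1d 44.1% occurred in Raet1e. Reads from such windows can only be divided by estimate between the genes, so the values of Raet1e and Raet1d are not independent. Raet1d was 20.8, 14.99 and 15.7 FPKM for Ctrl-IgG and 18.1, 14.5 and 19.8 FPKM for aCSF1R, against 3.07, 4.18 and 3.17 FPKM in IL-10-Fc and 4.55, 3.56 and 6.00 FPKM in BF10. Its level was 0.472 to 0.786 of that of Raet1e in the 12 libraries. C57BL/6 mice carry Raet1d and Raet1e, and other strains carry Raet1a, Raet1b and Raet1c in their place, which the table does not list. Reads of those genes were not analysed here.

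H60b showed the opposite pattern to its neighbour. It reached 0.15 FPKM at most in the 6 libraries without IL-10, whereas IL-10-Fc libraries had 5.44, 7.17 and 3.56 FPKM and BF10 libraries 6.08, 5.86 and 3.70 FPKM. With limma (the test is described with the comparisons of the members), Raet1d was 1.86 lower with IL-10 (SE 0.17, adjusted p 1.12e-05) and H60b 2.53 higher (SE 0.17, adjusted p 1.97e-06) on the log2 scale, averaged over both backgrounds. The third measured relative, H60c, did not pass the filter and was at most 1.35 FPKM in any library. Of 7 further NKG2D ligand genes looked for, 3 had values, so the next sum leaves out others, Raet1a, Raet1b and Raet1c among them. The summed FPKM of Raet1d, Raet1e, H60b, H60c and Ulbp1 was 43.2 to 56.0 without IL-10 and 28.4 to 38.08 with it. Raet1d and Raet1e together made up 77.9% to 91.1% of this sum on the first side and 26.6% to 45.5% on the second. The simple epithelial markers moved with this division, with 6 of 6 called higher with IL-10, and their part in the ligand values was not tested.

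**Figure D1:**
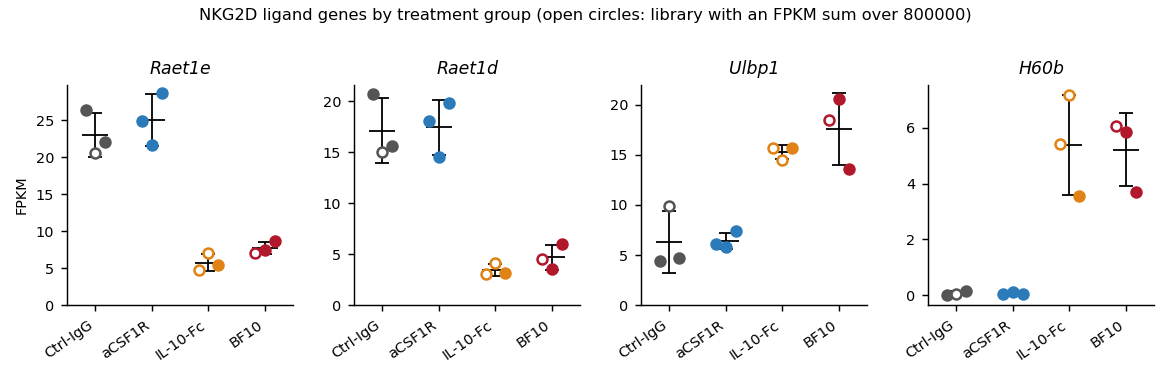
FPKM of 4 NKG2D ligand genes in each of the 12 libraries by treatment group, with the group mean and SD (n = 3) as black bars and open circles for the 4 libraries with an FPKM sum over 800000. Raet1e and Raet1d lie at 14.5 FPKM or more in Ctrl-IgG and aCSF1R and at most at 8.66 FPKM in IL-10-Fc and BF10, while Ulbp1 and H60b lie higher in the latter groups.

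Eomes separated the same libraries. This transcription factor gene (chromosome 9, 118478212 to 118486132, plus strand) was 7.29, 6.41 and 5.84 FPKM for Ctrl-IgG and 5.62, 5.57 and 5.19 FPKM for aCSF1R. The values were 0.37, 0.30 and 0.49 FPKM for IL-10-Fc and 0.63, 0.98 and 1.70 FPKM for BF10. The groups did not overlap in any of the 5 pairs compared, and the highest of the values with IL-10 came from BF10 replicate 3. In these pairs, 5.18% (BF10 and IL-10-Fc) to 55.7% (BF10 and aCSF1R) of all tested genes did not overlap.

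Il2rb (chromosome 15, 78479256 to 78495271, minus strand) varied far more within groups. It was 23.5, 7.20 and 10.8 FPKM for Ctrl-IgG, 19.5, 23.9 and 21.4 FPKM for aCSF1R, 1.81, 1.4 and 4.17 FPKM for IL-10-Fc and 2.7, 8.74 and 8.89 FPKM for BF10. The lowest value of Ctrl-IgG, the 2 lowest of IL-10-Fc and the lowest of BF10 all came from the libraries of high FPKM sum. Ctrl-IgG and BF10 overlapped, and IL-10-Fc lay below both Ctrl-IgG and aCSF1R.

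Nkg7 (chromosome 7, 43437073 to 43438249, plus strand) was 30.5, 20.9 and 12.6 FPKM for Ctrl-IgG, 24.3, 24.4 and 28.6 FPKM for aCSF1R, 7.02, 5.83 and 5.58 FPKM for IL-10-Fc and 10.6, 10.6 and 18.8 FPKM for BF10. All 3 BF10 libraries were above all 3 IL-10-Fc libraries, and BF10 replicate 3 was above the lowest Ctrl-IgG library.

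The surface receptors followed another order. Ncr1 (chromosome 7, 4337724 to 4345164, plus strand) was 5.18, 7.74 and 1.47 FPKM for Ctrl-IgG, 2.93, 2.51 and 2.57 FPKM for aCSF1R, 7.86, 3.45 and 1.02 FPKM for IL-10-Fc and 2.71, 1.71 and 2.09 FPKM for BF10. The groups overlapped in every pair. The highest and the lowest value of the 12 both fell in IL-10-Fc, in replicates 1 and 3, so that its mean of 4.11 FPKM had an SD of 3.47 (n = 3). Klrd1 (chromosome 6, 129591782 to 129598775, plus strand) was the most abundant of the surface receptor genes on this per-length scale, at 19.8, 33.5 and 8.97 FPKM for Ctrl-IgG, 16.6, 16.2 and 13.7 FPKM for aCSF1R, 16.4, 13.3 and 5.14 FPKM for IL-10-Fc and 11.3, 7.63 and 11.8 FPKM for BF10. All BF10 libraries lay below all aCSF1R libraries, in a pair where 55.7% of all tested genes did not overlap.

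Klrc1, which encodes the inhibitory partner of Klrd1 (chromosome 6, 129666015 to 129678973, minus strand), was 5.97, 11.8 and 4.62 FPKM for Ctrl-IgG and 6.05, 5.64 and 5.48 FPKM for aCSF1R. The values were 13.2, 10.4 and 2.27 FPKM for IL-10-Fc and 10.1, 2.53 and 3.51 FPKM for BF10. The 4 values of 10.1 FPKM or more were those of the 4 libraries of high FPKM sum. A share of 25.0% of its 75-base windows also occurred in another gene, mostly in Klrc2, so part of its value is uncertain. Klrk1, the gene of NKG2D itself (chromosome 6, 129610323 to 129623864, minus strand), was 11.4, 18.5 and 8.05 FPKM for Ctrl-IgG, 6.82, 7.48 and 7.80 FPKM for aCSF1R, 11.2, 9.75 and 3.42 FPKM for IL-10-Fc and 7.91, 4.65 and 6.55 FPKM for BF10. All aCSF1R libraries lay below all Ctrl-IgG libraries, and so did all BF10 libraries. Of all tested genes, 14.9% and 38.4% did not overlap in these pairs. In limma, Klrk1 was called in neither pair, and on the log2 scale it was 0.84 lower in BF10 than in Ctrl-IgG (SE 0.40, adjusted p 0.156).

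Klrb1c (chromosome 6, 128778485 to 128789215, minus strand) was the surface receptor gene that differed most between the sides. It was 3.87, 4.57 and 1.10 FPKM for Ctrl-IgG and 2.78, 2.53 and 4.19 FPKM for aCSF1R, against 1.98, 1.11 and 0.30 FPKM in IL-10-Fc and 1.22, 0.50 and 1.44 FPKM in BF10. BF10 lay below aCSF1R without overlap, as 55.7% of all tested genes did not overlap in that pair. Ctrl-IgG replicate 3, in contrast, fell within the range of both groups given IL-10. Klrb1c was 0.590 to 1.63 of Ncr1 without IL-10 and 0.252 to 0.689 of it with IL-10, with the highest of the latter in BF10 replicate 3. Of its 75-base windows, 13.2% occurred in another gene's transcripts.

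**Figure D2:**
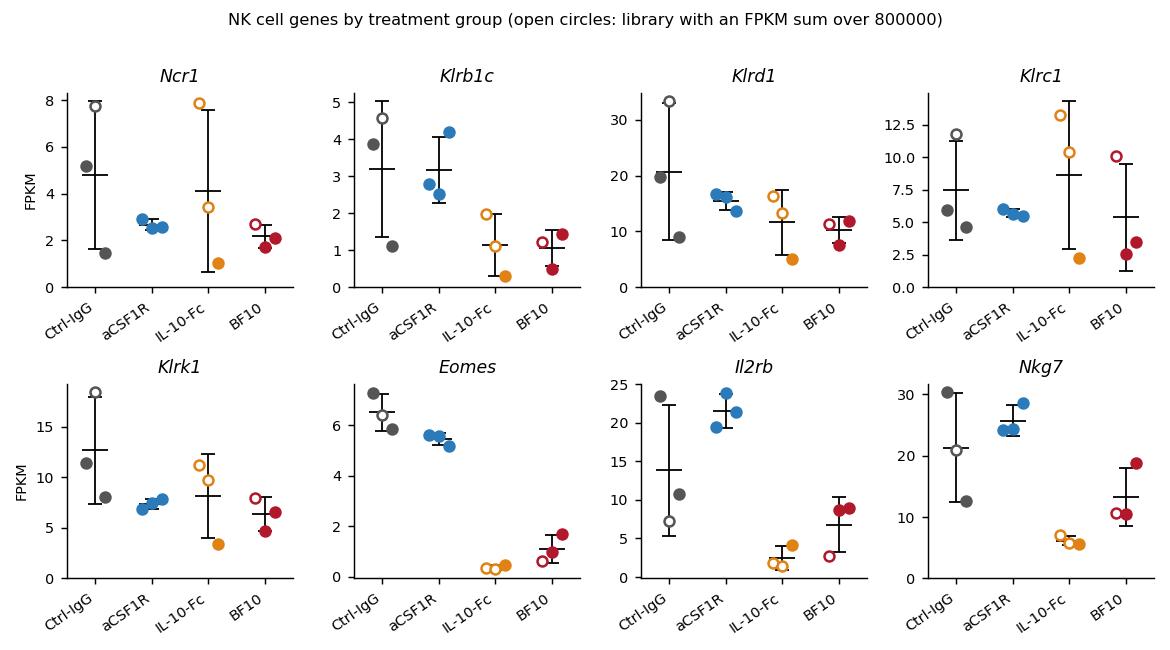
FPKM of the 8 genes of the receptor side in each of the 12 libraries by treatment group, with the group mean and SD (n = 3) as black bars and open circles for the 4 libraries with an FPKM sum over 800000. Eomes lies at 5.19 FPKM or more in Ctrl-IgG and aCSF1R and at most at 1.70 FPKM in IL-10-Fc and BF10, whereas the values of Ncr1 and Klrc1 overlap in every pair of groups.

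No member differed past the threshold with the antibody part, whether in the absence of IL-10 or beside it. Each comparison was tested with limma on log2(FPKM + 1) of all 15813 genes, and a gene was called at a Benjamini-Hochberg adjusted p under 0.05 with at least a 1.5-fold difference. Between aCSF1R and Ctrl-IgG, 0 of the 10 members were called, where 0% of all tested genes were called, and 0 members had an unadjusted p under 0.05. The largest difference was that of Il2rb, at 0.76 (SE 0.48, adjusted p 0.958) higher in aCSF1R on the log2 scale. Klrk1 was 0.64 lower (SE 0.40) and Eomes 0.21 lower (SE 0.22), both with an adjusted p of 0.958. Groups that did not overlap, as for these 2 genes, were found for 14.9% of all tested genes in this comparison.

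Between BF10 and IL-10-Fc, 0 of the 10 members were called, against 0.0126% of all tested genes, and 3 had an unadjusted p under 0.05. These were Nkg7, 0.96 higher in BF10 (SE 0.32), Il2rb, 1.12 higher (SE 0.48), and Eomes, 0.57 higher (SE 0.22), each with an adjusted p of 0.478. Eomes and Nkg7 did not overlap between these groups, as was the case for 5.18% of all tested genes. The median of all tested genes was itself 0.34 higher in BF10. Without BF10 replicate 3, the library with Y-linked transcripts, Eomes was 0.38 higher, Il2rb 0.88 higher and Nkg7 0.70 higher. Averaged over the 2 antibody comparisons, again 0 members were called, where the share of all tested genes was 0.00632%, and 2 had an unadjusted p under 0.05. These were Il2rb and Nkg7. Il2rb was 0.94 (SE 0.34) and Nkg7 0.65 (SE 0.22) higher with the antibody part, both with an adjusted p of 0.436. Over the alternatives, Il2rb ran from 0.50 to 1.17 and Nkg7 from 0.38 to 0.83. The libraries of high FPKM sum held the lowest Il2rb values of their groups, and of them only BF10 replicate 1 had the antibody part.

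An interaction term, given here as a departure, was the difference of BF10 from IL-10-Fc minus that of aCSF1R from Ctrl-IgG on the log2 scale. These differences lie on opposite sides, where host and tumour line cannot be told apart from treatment. The term therefore cannot tell whether the effects of antibody and cytokine added up in BF10. None of the 10 members was called (0), against 0.00632% of all tested genes. Eomes had the only unadjusted p under 0.05 among them, 0.0267, with a departure of 0.79 (SE 0.31, adjusted p 1.00). The SE of this departure ran from 0.30 for Raet1e to 0.81 for Klrc1.

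Libraries labelled IL-10-Fc had less RNA of Eomes, Il2rb, Nkg7 and the ligand gene Raet1e than Ctrl-IgG libraries and more of the ligand gene Ulbp1. The surface receptor genes were not called in this fit. Host and tumour line cannot be told apart from treatment in this pair. Between IL-10-Fc and Ctrl-IgG, 5 of the 10 members were called, where 33.7% of all tested genes were called, 10.1% higher and 23.6% lower in IL-10-Fc. Eomes was 2.44 lower (SE 0.22, adjusted p 3.19e-05), Il2rb 2.03 lower (SE 0.48, adjusted p 0.00848), Nkg7 1.57 lower (SE 0.32, adjusted p 0.00348) and Raet1e 1.83 lower (SE 0.21, adjusted p 0.000129). Ulbp1 was 1.22 higher (SE 0.28, adjusted p 0.0071). Klrb1c, 0.93 lower (SE 0.41), had an adjusted p of 0.101, and Ncr1, Klrd1, Klrc1 and Klrk1 had adjusted p-values of 0.236 to 0.974. With the log2 FPKM sum as a covariate, 9 members were called, 7 of them genes of the receptor side that were lower, Klrb1c (-1.30, adjusted p 0.00923) and Klrc1 (-0.75, adjusted p 0.00285) among them, where 45.2% of all tested genes were called. Across the 8 genes of the receptor side, the median difference was -0.84, against -0.39 for all tested genes.

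In libraries labelled BF10, Eomes and Raet1e were again below the control and Ulbp1 above it. Between BF10 and Ctrl-IgG, 3 of the 10 members were called, against 24.9% of all tested genes, 11.8% higher and 13.2% lower in BF10. Eomes was 1.86 lower (SE 0.22, adjusted p 0.000208), Raet1e 1.45 lower (SE 0.21, adjusted p 0.000699) and Ulbp1 1.39 higher (SE 0.28, adjusted p 0.00459). Il2rb, 0.91 lower (SE 0.48), and Nkg7, 0.60 lower (SE 0.32), had adjusted p-values of 0.206 and 0.201. With the log2 FPKM sum as a covariate 6 members were called, where 43.6% of all tested genes were, and with the 4 libraries of high FPKM sum left out, a choice made after the data were seen, 5 were called, where 40.8% of all tested genes were.

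Against the aCSF1R libraries, those labelled BF10 had less Eomes, Il2rb and Raet1e RNA and more Ulbp1 RNA. Between BF10 and aCSF1R, 4 of the 10 members were called, against 25% of all tested genes, 11% higher and 14% lower in BF10. Eomes was 1.65 lower (SE 0.22, adjusted p 0.000407), Il2rb 1.67 lower (SE 0.48, adjusted p 0.0275), Raet1e 1.57 lower (SE 0.21, adjusted p 0.000449) and Ulbp1 1.3 higher (SE 0.28, adjusted p 0.00661). The call of Il2rb was lost in 6 of 21 alternatives, namely without any 1 of the aCSF1R replicates or BF10 replicate 1 (adjusted p 0.0662 to 0.0903), after rescaling to TPM (0.0639) and with all genes above 0 FPKM tested (0.0523), and its adjusted p ran from 0.00161 to 0.0903 over the 21. Nkg7, 0.94 lower (SE 0.32), missed the threshold at an adjusted p of 0.0501. It was called in 7 of the 21 alternatives, with adjusted p-values of 0.021 to 0.156 over them. Groups that did not overlap, 7 of the 10 members here, made up 55.7% of all tested genes.

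Averaged over both backgrounds, the cytokine part went with calls of 6 of the 10 members, against 43.2% of all tested genes, 14.6% higher and 28.6% lower with IL-10. Klrb1c was 0.98 lower (SE 0.29, adjusted p 0.0169), Eomes 2.04 lower (SE 0.15), Il2rb 1.85 lower (SE 0.34), Nkg7 1.25 lower (SE 0.22), Raet1e 1.70 lower (SE 0.15) and Ulbp1 1.26 higher (SE 0.20), the last 5 with adjusted p-values of 3.36e-06 to 0.00122. The call of Klrb1c was lost when the libraries were scaled by median-of-ratios size factors (-0.74, adjusted p 0.0897), which moved the median of all tested genes from -0.30 to -0.01 and the share of higher genes among the calls from 33.8% to 50%. Under that scaling, Eomes, Il2rb, Nkg7 and Raet1e stayed lower and Ulbp1 higher, at -1.85, -1.58, -0.94, -1.38 and 1.57. Ncr1 (-0.23, SE 0.38) and Klrc1 (-0.12, SE 0.41) were not called, and both turned to the other sign under this scaling. The comparisons with Ctrl-IgG and with aCSF1R share BF10 or Ctrl-IgG libraries and are not independent of each other.

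**Figure D3:**
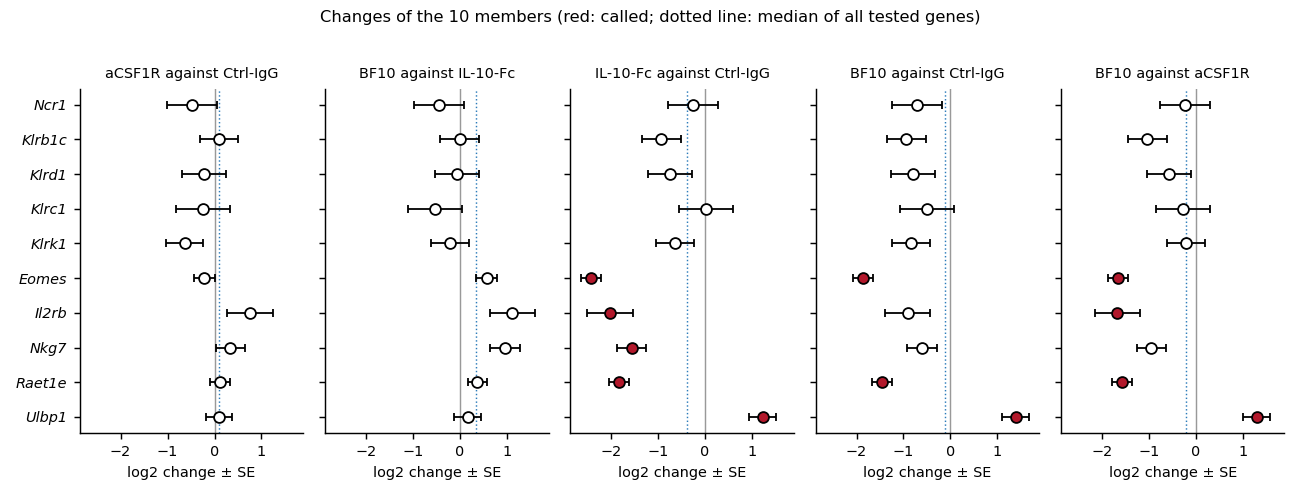
Difference of each member on the log2(FPKM + 1) scale with its standard error in 5 comparisons, the first group named minus the second. Red points were called, and the dotted line is the median of all 15813 tested genes. The 2 comparisons on the left hold 0 called members, and Eomes, Raet1e and Ulbp1 are called in each of the other 3.

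The sizes of these differences were also taken within parts of the libraries. For Eomes, Raet1e and Ulbp1 no library of either side reached the other side. Their direction within any part was therefore fixed beforehand, and only sizes are described. In every part, host and tumour line still cannot be told apart from treatment. Eomes differed by -2.38 between the sides in the libraries of high FPKM sum (3 given IL-10 and 1 not) and by -1.78 in the others (3 and 5). In the same order the values were -1.58 and -1.65 for Raet1e, -1.49 and -1.34 for Il2rb, -1.35 and -1.07 for Nkg7, and 0.65 and 1.39 for Ulbp1. The titles carry a code from 1 to 7, shared by some libraries, whose meaning the labels do not give. Codes 1 to 4 each belonged to only 1 treatment group. The libraries given IL-10 among them were the same 3 as those of high FPKM sum, so this division does not check the former independently. Among titles coded 1 to 4 (3 libraries given IL-10 and 4 not), Eomes differed by -2.33, Raet1e by -1.75 and Ulbp1 by 1.22, and among those coded 5 to 7 (3 and 2) by -1.70, -1.68 and 1.33. Il2rb and Nkg7 differed less evenly, by -2.61 and -1.58 among the former and by -1.03 and -0.81 among the latter.

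The summed level of the surface receptors and the ratio of Il2rb to Klrd1 differed with the second division of the libraries. The summed FPKM of Ncr1, Klrb1c, Klrd1, Klrc1 and Klrk1 in the library of high FPKM sum was above that of the other libraries of its group in Ctrl-IgG, IL-10-Fc and BF10. It was 76.0 against 46.2 and 24.2 in Ctrl-IgG, 50.8 and 38.0 against 12.2 in IL-10-Fc, and 33.2 against 17.02 and 25.4 in BF10. Not every gene took part, since in BF10 Klrb1c and Klrd1 were higher in replicate 3 than in replicate 1, and Klrc1 made up most of the gap between them. Il2rb divided by Klrd1 was 0.105 to 0.240 in the 4 libraries of high FPKM sum and 0.751 to 1.56 in the other 8, whatever the treatment. Eomes divided by Ncr1 was 0.828 or more in all libraries without IL-10 and 0.813 or less in all with it. With the 4 libraries left out, only replicate 3 remained in IL-10-Fc. That library held the lowest value of all 12 for Ncr1, Klrb1c, Klrd1, Klrc1 and Klrk1. The average over both backgrounds was then -0.94 for Klrd1, -0.84 for Klrc1 and -0.81 for Klrk1. These sizes rest on 1 library for the IL-10-Fc group.

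**Figure D4:**
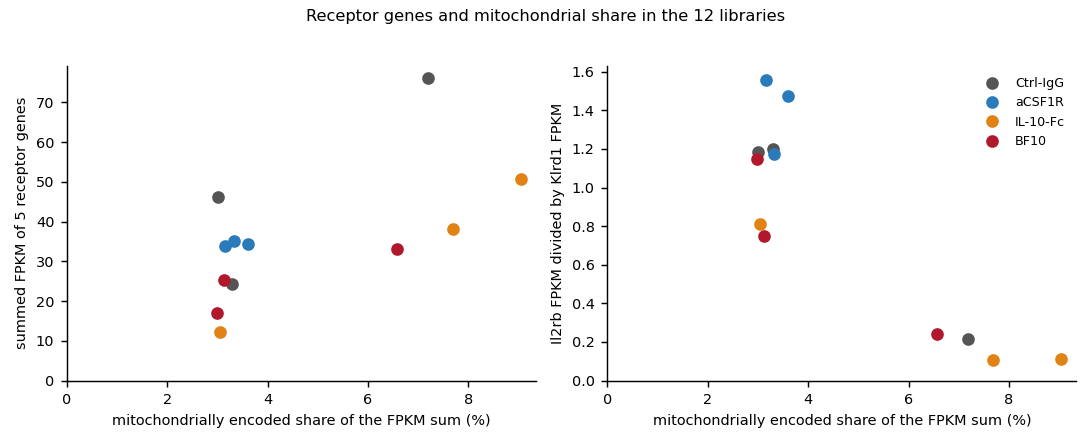
Summed FPKM of Ncr1, Klrb1c, Klrd1, Klrc1 and Klrk1 (left) and the FPKM of Il2rb divided by that of Klrd1 (right) against the mitochondrially encoded share of the FPKM sum (%) in each of the 12 libraries, coloured by treatment group. The 4 libraries with a share of 6.57% or more hold the 4 lowest ratios of Il2rb to Klrd1, at most 0.240.

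Deviations from the group means followed the same lines across the 12 libraries, given here as a description of points that share library preparation and FPKM sum. Among the 14542 tested genes whose mean reached 1 FPKM, the 5 most like Ncr1 were Kbtbd8 (r = 0.955), Plscr2 (0.949), Klre1 (0.948), Zfp677 (0.948) and Klrd1 (0.947). Klrk1 (0.908), Klrb1c (0.900) and Klrc1 (0.819) were close to it, Nkg7 (0.505) less so, and Eomes (-0.04) and Il2rb (-0.39) not. The 5 genes most like Ulbp1 were Pwwp3b (0.951), Naa15 (0.940), Anln (0.931), Azin1 (0.930) and Qk (0.927), none of them a member, and Raet1e had a value of -0.38.

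Other genes of NK cell recognition placed these values. Of the 13 Ly49 receptor genes listed, 11 were tested and 8 were called in the average over both backgrounds, where 43.2% of all tested genes were called, as for every list that follows. Of these, 1 was higher and 7 were lower with IL-10, with a median of -0.99 against -0.30 for all tested genes. Ly49 receptors bind classical MHC class I molecules. Klra4, which encodes the activating receptor Ly49D, was 68.8, 148 and 60.8 FPKM for Ctrl-IgG and 52.5, 41.7 and 55.3 FPKM for aCSF1R. The values were 0, 0.05 and 0.09 FPKM for IL-10-Fc and 2.02, 0.03 and 10.7 FPKM for BF10. Klra8, the gene of the cytomegalovirus receptor Ly49H of C57BL/6 mice, was 1.51 to 5.62 FPKM without IL-10, was listed at 0 in all 3 IL-10-Fc libraries and was 0.11, 0 and 0.65 FPKM in BF10. The BF10 library with the highest Klra4 and Klra8 values was replicate 3, the one with Y-linked transcripts. Other strains, BALB/c for example, lack both genes, so strain and NK cell content cannot be told apart in these values.

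Klra2, the Ly49 gene called higher (1.31, SE 0.28, adjusted p 0.00289), is a gene also expressed by myeloid cells, and it was 9.56 to 31.5 FPKM with IL-10 against 3.57 to 12.1 FPKM without it. Klra7, which encodes the inhibitory Ly49G, was 2.44 to 9.89 FPKM without IL-10 and 0.24 to 1.67 FPKM with it. Of 7 tested genes of the NKR-P1 and CD94 families outside the members, 1 was called higher (Klrc3, 1.25, SE 0.28) and 2 lower (Klrg1, -1.29, SE 0.27, and Klre1, -1.17, SE 0.31), with a median of 0.04.

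**Figure D5:**
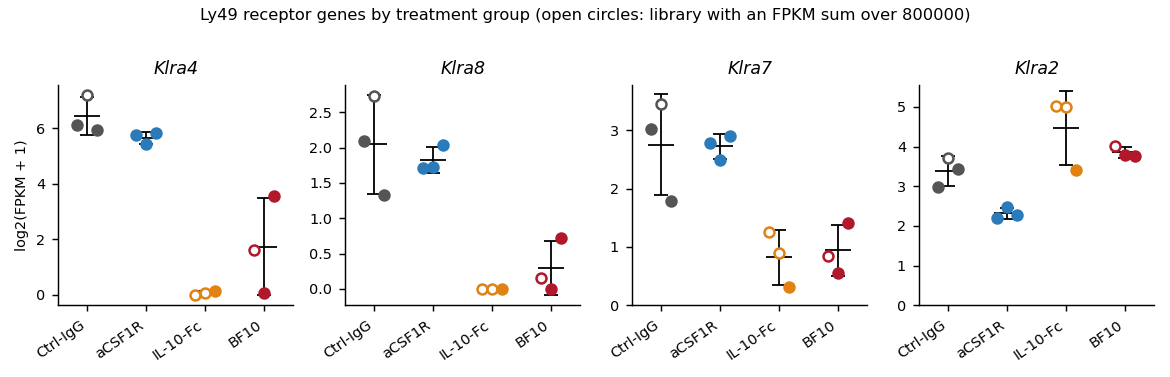
log2(FPKM + 1) of 4 Ly49 receptor genes in each of the 12 libraries by treatment group, with the group mean and SD (n = 3) as black bars and open circles for the 4 libraries with an FPKM sum over 800000. Klra4 and Klra8 are at or near 0 in all IL-10-Fc libraries and highest within BF10 in replicate 3, while Klra2 is higher in IL-10-Fc and BF10 than in aCSF1R.

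The effector genes had a median close to that of all tested genes. Of 11 tested effector genes, 5 were called lower and 1 higher in the average over both backgrounds, where 43.2% of all tested genes were called, with a median of -0.36 against -0.30 for all tested genes. Prf1, which encodes perforin (-3.29, SE 0.45), Gzma (-2.78, SE 0.59) and Gzmb (-2.75, SE 0.35), both granzymes, and Ccl5, a chemokine (-2.12, SE 0.25), had the largest falls. Cytotoxic T cells express these genes too. The 10 tested adaptors and kinases of NK receptors gave 2 called higher, Tyrobp (1.45, SE 0.34) and Hcst (0.97, SE 0.26), and 1 lower, Sh2d1b2 (-1.72, SE 0.15). Tyrobp and Hcst encode DAP12 and DAP10, signalling partners of NKG2D that macrophages also carry. Of 10 tested further surface receptors, 5 were called higher, led by Itga2 (2.89, SE 0.18), Cx3cr1 (1.97, SE 0.45) and Fcgr3 (1.75, SE 0.27), which other cell types also express, and 2 lower, led by Slamf7 (-2.05, SE 0.30). Of 7 tested transcription factors, Gata3 (2.30, SE 0.33) was called higher and 0 lower.

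Among 8 tested growth cytokines of NK cells and their receptors, Il18 (1.84, SE 0.21) and Il18rap (0.60, SE 0.17) were called higher and Il15ra (-1.13, SE 0.34) and Il15 (-0.73, SE 0.27) lower. IL-15 and its receptor chain support NK cell survival through Il2rb. Among 10 tested ligands of other NK receptors, 3 were called higher, namely Cdh1 (2.35, SE 0.61), H2-T23, the gene of Qa-1 (1.95, SE 0.55), and Clec2d (0.88, SE 0.25), and 1 lower, Pvr (-1.43, SE 0.43). H2-T23 was 8.29 to 36.5 FPKM without IL-10, 36.5 to 47.8 FPKM in the 3 libraries of high FPKM sum with IL-10, and 190 to 232 FPKM in the other 3 with IL-10. In none of these lists was a gene called in the 4 antibody-side tests (0 in all).

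Markers of other cell types were set beside the members. The 8 NK cell markers summed to 73.1 to 180 FPKM for Ctrl-IgG, to 59.0 to 74.8 for aCSF1R, to 14.9 to 19.4 for IL-10-Fc and to 13.9 to 24.3 for BF10, and 5 of the 7 tested were called lower and 1, Itga2, higher. Up to 3 of them were at 0 in a library with IL-10. Without IL-10 these sums rest largely on Klra4, a strain-linked gene. The 10 T cell markers summed to 31.4 to 33.5 FPKM for Ctrl-IgG, to 27.4 to 37.9 for aCSF1R, to 29.5 to 44.9 for IL-10-Fc and to 54.4 to 118 for BF10, with 3 of 8 tested called higher. The leukocyte markers summed to 190 to 447 FPKM without IL-10 and to 381 to 807 FPKM with it, with 4 of 6 called higher. The 8 macrophage markers, of which 5 were called higher, summed to 237 to 761 FPKM and to 790 to 1243 FPKM. None of the T cell, leukocyte and macrophage markers was at 0 in any library. The lower values of Eomes, Nkg7 and Il2rb on the IL-10 side stood beside leukocyte markers of which 4 were called higher and 0 lower. Both lie across sides where host and tumour line cannot be told apart from treatment, and a link to NK cell content was not tested. Keratinocyte markers ran from 2.49 to 2034 FPKM without IL-10 and from 18.3 to 36.9 FPKM with it, with 0 of 10 called. Skeletal muscle markers ran from 15.9 to 831 FPKM and from 19.2 to 108 FPKM, with 7 of 10 called lower. Their parts in the members' differences were not tested.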

How the data were processed

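RNA of 12 tumour samples was compared by the treatment named in the labels, 3 per group. Labels carry no replicate numbers, so these were given in sample order and pair nothing, and where the samples came from is not stated beyond the tumour, so p-values measure the spread between these libraries. The authors prepared stranded mRNA libraries (TruSeq, sequenced on an Illumina NextSeq), and the submitters' processing notes name STAR 2.7.5a, RSEM 1.3.3, DESeq2 1.30.0 and the build GRCm38 (mm10). The authors deposited FPKM values for 55401 genes, rounded to 0.01. FPKM keep no counts, so the depth behind each value is unknown and no count model or counting interval was used. The authors' 4 deposited tables of group comparisons hold fold changes and p-values and were not used.

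The 15813 genes that reached 1 FPKM in 3 or more libraries were tested on log2(FPKM + 1), a scale that understates changes of low genes. limma 3.58.1 in R 4.3.3 fitted a mean per group over all 12 libraries with an intensity trend, adjusted by Benjamini-Hochberg, and the script was tested on simulated data. Contrasts were 5 pairs of groups, the averages of the antibody and of the cytokine differences, and an interaction of both. No pair of libraries was identical (0). Positions came from GENCODE M21, and sequences and starts from RefSeq (GRCm38.p6), which held promoters of 8 of the 10 members. Windows of 75 bases were compared across GENCODE transcripts. The text names all members, from each of 17 lists at most 4 called genes of largest change with the genes that check labels (H60c and Klra2 were named outside this, after their values were seen), and the 5 genes most like Ncr1 and Ulbp1. Members and lists were chosen with earlier results of these data known. Alternatives (21) are given in the closing section.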

Additional observations from a re-analysis of the deposited data

How the results depend on the processing

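Of the 18 called differences of members, 0 changed sign over 372 refits and 8 fell short of the threshold. These were Il2rb between BF10 and aCSF1R (6 refits), Klrb1c in the cytokine average under median-of-ratios scaling, and Ulbp1 between IL-10-Fc and Ctrl-IgG when only those groups were fitted (1.22, adjusted p 0.0599; range over its refits 0.00107 to 0.0599). Of 62 differences that were not called, 31 refits brought a call with the same sign and 105 a change of sign, 2 of the latter with a call. The number of called members rose from 5 to 9 between IL-10-Fc and Ctrl-IgG and from 3 to 6 between BF10 and Ctrl-IgG with the log2 FPKM sum as a covariate, and to 5 in the latter with the 4 libraries of high FPKM sum left out, an alternative chosen after seeing the data. The share called of all tested genes rose too, from 33.7% to 45.2%, from 24.9% to 43.6% and to 40.8%. Leaving out 1 library at a time gave 5 to 6, 3 to 4, 3 to 6 and 6 to 7 called members in IL-10-Fc against Ctrl-IgG, BF10 against Ctrl-IgG, BF10 against aCSF1R and the cytokine average, and 0 in the antibody comparisons. In the same order, the first 4 had 22.5% to 51.5%, 16.6% to 31%, 16.5% to 32% and 37.9% to 53.8% of all tested genes called. Median-of-ratios scaling moved the share of higher genes among all calls from 30% to 49.4% between IL-10-Fc and Ctrl-IgG. The cause of these shifts was not tested. Leaving out the 4 libraries left 1 library in IL-10-Fc, so called members are not counted for that refit in the comparisons that use IL-10-Fc.

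Uncalled values of Ncr1 and Klrc1 turned sign. In the cytokine average, Ncr1 was 0.044 under median-of-ratios scaling and -0.50 to 0.038 without 1 library, turning only without IL-10-Fc replicate 3, and Klrc1 was 0.20 under that scaling, 0.061 with a term for the title code, and -0.36 to 0.21 without 1 library. Klrc1 between IL-10-Fc and Ctrl-IgG (0.03, SE 0.57) was -0.012 with a pseudocount of 0.1 and -0.19 after rescaling to TPM. It was -0.38 to 0.68 without 1 library, and -0.75 with the covariate, where it was called (adjusted p 0.00285). Without the 4 libraries, which left only replicate 3 in IL-10-Fc, it was -0.94. No paired analysis was possible because the labels give no replicate numbers. FPKM carry no depth, and 3 libraries per group limit what low genes such as Ncr1 and Klrb1c can show.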
